A study of Mus musculus with 12 samples.

Results

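The microsomal glutathione transferases of the mouse are 3 genes, Mgst1, Mgst2 and Mgst3, and their transcripts were followed here in liver RNA hybridised to 12 Affymetrix arrays. Members were taken as all probe sets whose platform annotation carries one of these symbols, each kept apart because probe sets of 1 gene can differ. The rule gave 5 of the 22626 probe sets that are not controls. Mgst1 is read by 1415897_a_at and 1415898_at, Mgst2 by 1452592_at, and Mgst3 by 1448300_at and 1450563_at. Of these 5, 4 passed a filter on low values and are among the 14320 probe sets tested, while 1415898_at did not pass it.

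The livers came from adult males of the C57BL6/J strain aged 8 weeks, 3 to each of 4 groups, and the labels describe them as biological replicates. Liver-null mice carry a conditional-null allele of Txnrd1, the gene of cytosolic thioredoxin reductase, disrupted by a Cre recombinase driven by the albumin promoter. That promoter works in hepatocytes, so the other cells of the liver keep the gene. The groups were liver-null mice given acetaminophen (APAP), wild-type mice given APAP, liver-null mice given saline and wild-type mice given saline. APAP was injected into the peritoneum at 100 mg/kg, and livers were taken 8 hours after either injection. Whether the wild-type mice carried the Cre transgene or an unrecombined conditional allele is not given in the sources used here.

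Microsomal glutathione transferases are small integral membrane proteins of the MAPEG family (membrane-associated proteins in eicosanoid and glutathione metabolism), unrelated in fold to the soluble glutathione transferases. MGST1 sits in the endoplasmic reticulum and the outer mitochondrial membrane of hepatocytes, where it conjugates glutathione to electrophiles and reduces lipid hydroperoxides. From work on the human enzymes, MGST2 and MGST3 can join glutathione to leukotriene A4 to give leukotriene C4, and both reduce lipid hydroperoxides with glutathione. APAP is oxidised in hepatocytes to a reactive quinone imine that glutathione traps. Thioredoxin reductase and glutathione are the main sources of reducing power for thiols in the cytosol, and NRF2 is the transcription factor that many genes of glutathione conjugation answer to.

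The promoter windows of Mgst3, the member that differed between the genotypes, and of Mgst1, the member that stayed level, are printed so that they can be set beside the values. They run from 250 bases before to 50 bases after a RefSeq transcript start in GRCm38.p6, given 5′ to 3′ on the strand of the gene. Capitals mark matches on either strand to TGACNNNGC, the core letters of the antioxidant response element that NRF2 binds, and to GGGCGG, a GC box. The Mgst3 window is chr1:167393792-167394091 on the minus strand and the Mgst1 window is chr6:138140277-138140576 on the plus strand.
Mgst3: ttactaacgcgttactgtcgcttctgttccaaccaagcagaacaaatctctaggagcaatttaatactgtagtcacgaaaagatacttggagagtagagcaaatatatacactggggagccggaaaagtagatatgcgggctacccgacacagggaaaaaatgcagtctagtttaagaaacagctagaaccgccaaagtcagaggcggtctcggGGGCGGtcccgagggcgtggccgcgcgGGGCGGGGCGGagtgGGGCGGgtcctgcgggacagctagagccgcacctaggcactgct
Mgst1: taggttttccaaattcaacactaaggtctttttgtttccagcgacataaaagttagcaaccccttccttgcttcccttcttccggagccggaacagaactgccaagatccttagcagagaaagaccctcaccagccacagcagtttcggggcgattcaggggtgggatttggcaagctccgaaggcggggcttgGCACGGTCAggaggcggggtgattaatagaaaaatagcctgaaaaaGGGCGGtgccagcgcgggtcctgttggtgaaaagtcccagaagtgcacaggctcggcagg
The Mgst3 window held 4 matches to GGGCGG, with first bases at -36, -9, -4 and 7 from the start, of which those at -9 and -4 overlap. It held 0 matches to TGACNNNGC. The Mgst1 window held 1 match to TGACNNNGC, on the minus strand with its leftmost base at -56, and 1 match to GGGCGG at -10. A second RefSeq start of Mgst1, with the window chr6:138141337-138141636, and the Mgst2 window chr3:51660929-51661228, both on the plus strand, held 0 matches to either motif. The Mgst2 window held overlapping matches to TATAAA on the minus strand at -34 and on the plus strand at -32, and 1 match to CCAAT at -62. That window lies inside the gene, which begins at chr3:51636912, so the upstream end of Mgst2 was not covered. Across all 32851 windows of the table, TGACNNNGC was present in 12.4%, GGGCGG in 35.7%, TATAAA in 13.6% and CCAAT in 37.4%. GC content was 54.7% in the Mgst3 window, 53.7% in the first Mgst1 window and 46.3% in the Mgst2 window. Such matches describe letters in these windows only.

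By RefSeq coordinates in GRCm38.p6, Mgst3 spans chr1:167371966-167393841, Mgst1 spans chr6:138140527-138156755 and Mgst2 spans chr3:51636912-51682675. Deposited values are log2 signals summarised by RMA, with no count behind them and no detection call used here, so the number of arrays limits their precision. Probe sets differ in how strongly they bind, so a signal says more between arrays for 1 probe set than between probe sets. Array medians lay between 2.91 and 2.99. The upper quartile fell into 2 array sets, 5.48 to 5.58 on 4 arrays, 1 from each group (liver-null APAP 17, wild-type APAP 14, liver-null saline 16 and wild-type saline 10), and 5.72 to 5.85 on the other 8. The labels do not name these sets. All 8 hepatocyte markers on the array passed the filter, as did 9 of 9 Kupffer cell and 7 of 7 endothelial markers, 2 of 8 muscle and 1 of 3 fat markers. Here and below, a listed gene counts as on the array only if a probe set carries its symbol alone. The Txnrd1 probe set 1421529_a_at was higher, not lower, on the arrays labelled liver-null: 10.44 ± 0.12 in liver-null and 9.68 ± 0.08 in wild-type livers after APAP, and 10.35 ± 0.10 in liver-null and 9.61 ± 0.19 in wild-type livers after saline (SD, n = 3 each). Where its probes lie in Txnrd1, inside or outside the segment that Cre removes, was not analysed here, so it does not check the genotype labels, and every direction below is that of the libraries labelled liver-null. The other 2 Txnrd1 probe sets, 1424486_a_at and 1424487_x_at, lay below the filter on every array.

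Mgst3 was the member that differed between genotypes. After APAP, 1448300_at gave 8.80, 8.95 and 7.95 in livers 2, 3 and 17 of the liver-null mice, against 4.99, 5.97 and 6.09 in livers 12, 13 and 14 of the wild-type mice (log2 signal). Every liver-null liver stood above every wild-type liver, with liver-null APAP 17 the lowest of its group and wild-type APAP 12 the lowest of all 12. The means were 8.57 ± 0.54 and 5.68 ± 0.60 (SD, n = 3 each), a log2 difference of 2.88 (SE 0.32, 95% interval 2.18 to 3.59), or 7.38-fold (4.53 to 12.03), with a limma adjusted p of 0.00247. By size this was difference 14 among the 14320 probe sets. Of the 4 tested member probe sets, 1 passed the test in this comparison, where 0.761% of all tested probe sets did.

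After saline the gap had the same direction. Livers 4, 5 and 16 of the liver-null mice gave 8.79, 8.75 and 8.30, against 6.27, 6.84 and 6.76 in livers 8, 9 and 10 of the wild-type mice. The groups did not overlap, and the lowest liver-null value stood above the highest wild-type value. Means were 8.61 ± 0.27 in liver-null and 6.62 ± 0.31 in wild-type livers (SD, n = 3 each). The log2 difference was 1.99 (SE 0.32, 95% interval 1.28 to 2.69), or 3.97-fold (2.44 to 6.46), with a limma adjusted p of 0.0205. It was difference 30 by size, and again 1 of the 4 tested member probe sets passed, where 0.622% of all tested probe sets did. This call depended on single arrays: the adjusted p in limma was 0.0855 with liver-null saline 4 left out, 0.0875 with liver-null saline 5, 0.108 with wild-type saline 8 and 0.0741 with wild-type saline 9, with log2 differences from 1.81 to 2.14 over the 6 arrays left out in turn. The call after APAP held in limma in each of its 6 such fits, with log2 differences from 2.54 to 3.19.

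Averaged over both injections, Mgst3 1448300_at was 2.44 log2 units higher in liver-null livers (SE 0.23), or 5.41-fold (95% interval 3.83 to 7.64), with a limma adjusted p of 0.00022. The 6 liver-null livers ranged from 7.95 to 8.95 and the 6 wild-type livers from 4.99 to 6.84. Of the 4 tested member probe sets, 1 passed this test and 1 had genotypes that did not overlap over 6 against 6 livers, beside 3.65% and 3.88% of all tested probe sets. The call held in limma in each of the 12 fits that left out 1 array, from 2.26 to 2.59. Within the first array set the log2 difference was 3.40 after APAP and 2.21 after saline (2 livers a group), and within the second it was 1.86 and 1.54 (1 liver a group). In whole liver, fewer cells of a type and less RNA per cell cannot be told apart.

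**Figure D1:**
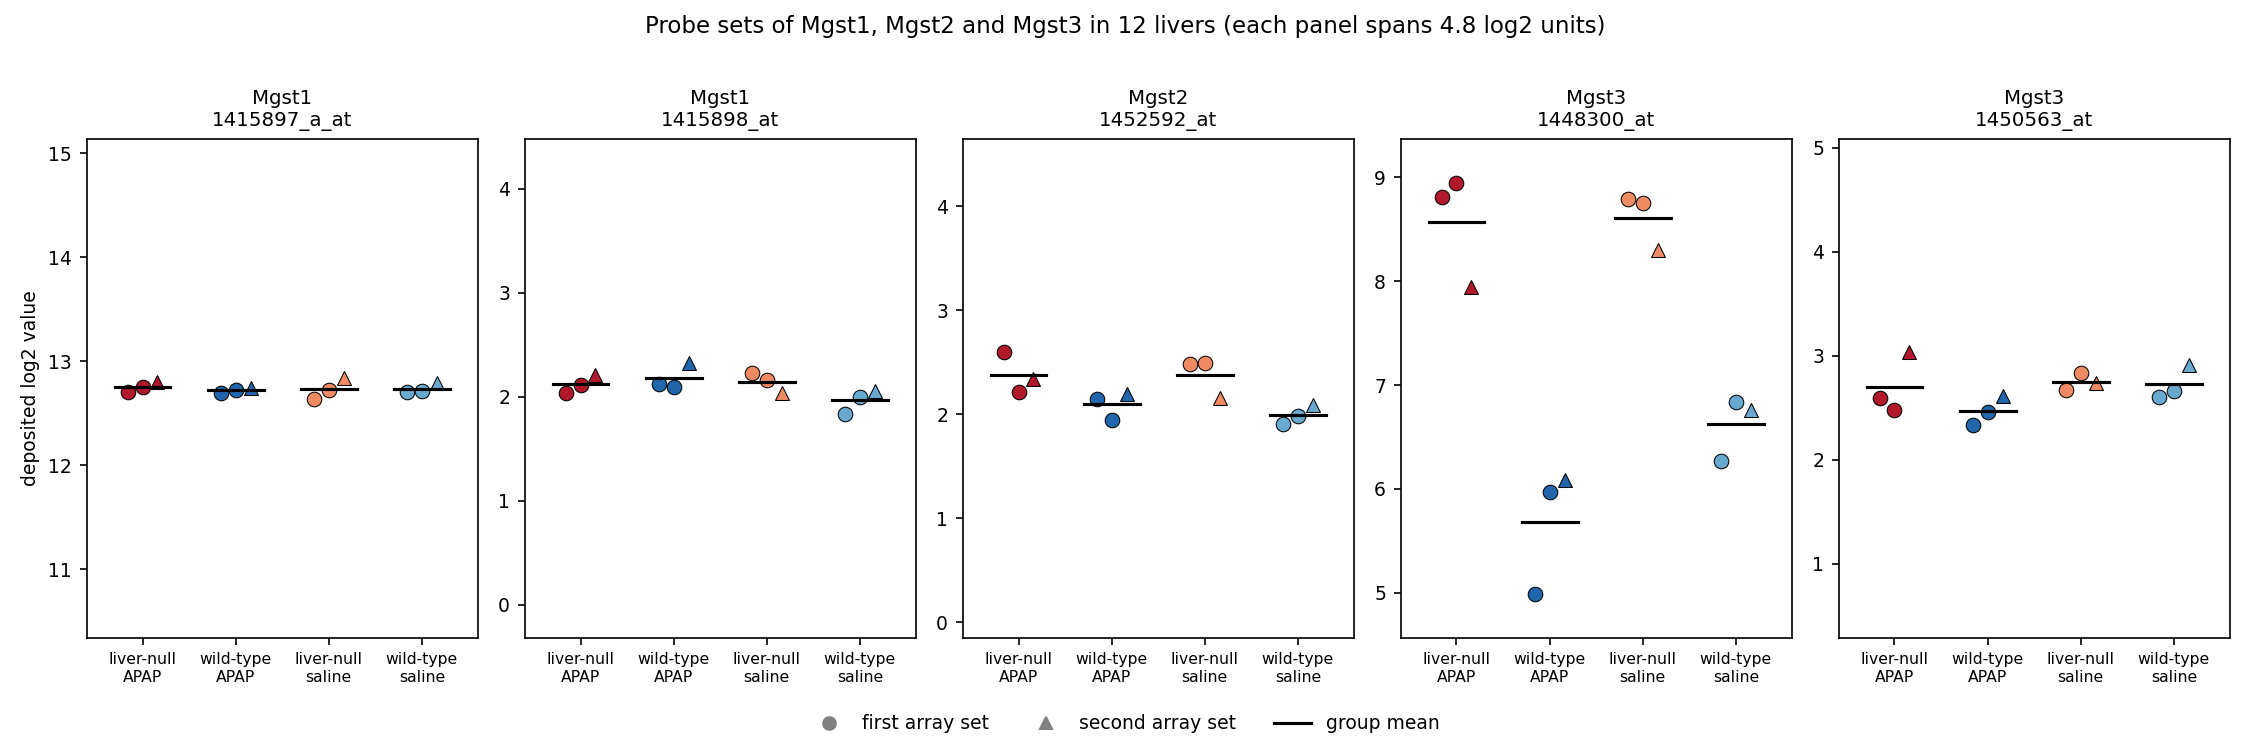
Log2 RMA signal of each microsomal glutathione transferase probe set in each of the 12 livers, by group, with circles for livers of the first array set, triangles for those of the second and a line at each group mean. Mgst3 1448300_at lies between 7.95 and 8.95 in liver-null livers and between 4.99 and 6.84 in wild-type livers, while Mgst1 1415897_a_at stays between 12.64 and 12.84 in all 12.

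Given here are marker lists of other cells that leaned by genotype beside Mgst3, out of a longer set of lists. Their part in the result was not tested. The stellate cell and fibroblast list (9 of 9 genes on the array) averaged 4.40 to 4.76 in liver-null and 4.68 to 4.92 in wild-type livers after APAP, where the ranges overlapped. After saline it averaged 4.31 to 4.67 in liver-null and 4.73 to 5.15 in wild-type livers. In the erythroid list, with 2 of 5 genes on the array, Hba-a1 lay below the filter and Alas2, which starts heme synthesis in red cell precursors, ranged from 7.504 to 7.84 in liver-null and 8.01 to 8.74 in wild-type livers after APAP, and from 6.93 to 7.98 in liver-null and 8.02 to 8.99 in wild-type livers after saline. No gene of either list passed the test. In the pancreas list, with 4 of 6 genes on the array, 1 gene passed. Cela1, a serine protease of the elastase family, was lower in liver-null livers after APAP (6.05 to 6.33 against 7.39 to 8.23) and after saline (5.91 to 6.28 against 7.71 to 8.41), with limma adjusted p of 0.00738 and 0.00635. Of the other 3, Cpa1 and Ctrb1 lay below the filter and Prss2 ranged from 2.56 to 2.75 in liver-null and from 2.42 to 2.70 in wild-type livers after APAP (limma adjusted p 0.984). Hepatocyte markers, 8 of 9 on the array, had no member that passed in either genotype comparison.

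APAP itself left Mgst3 without a called change. In liver-null livers the log2 difference of APAP over saline for 1448300_at was -0.05 (SE 0.32, 95% interval -0.75 to 0.66, limma adjusted p 1.0), and the groups overlapped. In wild-type livers it was -0.94 (SE 0.32, 95% interval -1.65 to -0.24), with an unadjusted p of 0.0132 and an adjusted p of 0.9999 in limma. The wild-type APAP livers, 4.99 to 6.09, all lay below the wild-type saline livers, 6.27 to 6.84. Groups did not overlap in 1 of the 4 tested member probe sets here and in 5.47% of all tested probe sets. In liver-null mice they did not overlap in 0 of the 4, beside 4.94% overall. The difference between the responses, liver-null minus wild-type, was 0.90 (SE 0.45, 95% interval -0.10 to 1.89), with an unadjusted p of 0.073 and an adjusted p of 0.9995 in limma.

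None of the 4 tested member probe sets passed the limma test for APAP over saline in liver-null livers, in wild-type livers, or for the difference between them, and 0% of all tested probe sets passed each of the 3 tests. At an unadjusted p under 0.05, limma gave 103 probe sets in liver-null livers, 276 in wild-type livers and 188 for the difference. The main fit and its alternatives all used limma, and with the first array set alone 1 probe set, not a member, passed in liver-null livers. Within the array sets the wild-type difference was -1.08 in the first and -0.67 in the second, and in liver-null livers it was 0.11 and -0.35.

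The other Mgst3 probe set, 1450563_at, did not show the gap. It gave 2.60, 2.48 and 3.04 in liver-null and 2.34, 2.46 and 2.61 in wild-type livers after APAP. After saline it gave 2.68, 2.84 and 2.74 in liver-null and 2.60, 2.66 and 2.91 in wild-type livers. Both pairs of groups overlapped, and its values stood between percentiles 37.2 and 52.1 of their arrays, close to the 40th percentile used as the filter, with wild-type APAP 12 below it. The genotype difference was 0.23 after APAP (95% interval -0.10 to 0.57, limma adjusted p 0.827) and 0.02 after saline (95% interval -0.31 to 0.36, limma adjusted p 0.982). Both intervals lie below those of 1448300_at, but a signal this dim limits any difference it can show. Which part of the transcript each one covers was not analysed here.

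Mgst1, the most studied liver enzyme of the family, gave signals near the array maximum that differed little across the groups. 1415897_a_at averaged 12.75 ± 0.05 in liver-null and 12.72 ± 0.02 in wild-type livers after APAP, and 12.73 ± 0.10 in liver-null and 12.74 ± 0.05 in wild-type livers after saline (SD, n = 3 each). All 12 values lay between 12.64 and 12.84, at percentiles 99.7 to 99.8 of their arrays, whose maxima were 13.7 to 13.97. The genotype difference was 0.03 after APAP (95% interval -0.18 to 0.24) and 0.00 after saline (95% interval -0.21 to 0.21). Averaged over both injections it was 0.01 (SE 0.07, 95% interval -0.13 to 0.16, limma adjusted p 0.963), so a change beyond 1.12-fold either way lies outside that interval. APAP over saline gave 0.02 in liver-null livers (95% interval -0.19 to 0.23) and -0.02 in wild-type livers (95% interval -0.23 to 0.19). Whether the probes were near saturation was not tested.

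The second Mgst1 probe set, 1415898_at, ranged from 1.84 to 2.33, below the filter on all 12 arrays and between percentiles 20.1 and 35.4. Its values have no reading as a level and it was not tested. Mgst1 is therefore described by 1 probe set alone.

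Mgst2, which makes leukotriene C4 outside blood cells in human tissue, gave low values with a small genotype gap that did not pass the test. After APAP, 1452592_at gave 2.60, 2.21 and 2.34 in livers 2, 3 and 17 of the liver-null mice and 2.15, 1.95 and 2.20 in livers 12, 13 and 14 of the wild-type mice. After saline it gave 2.49, 2.49 and 2.15 in livers 4, 5 and 16 of the liver-null mice and 1.90, 1.99 and 2.09 in livers 8, 9 and 10 of the wild-type mice. The genotypes did not overlap within either injection, though they did over all 12 livers. With Mgst3 1448300_at, that makes 2 of the 4 tested member probe sets without overlap in each comparison, beside 13% of all tested probe sets after APAP and 14.6% after saline. The probe set entered the test through 3 liver-null arrays and 0 wild-type arrays, so its place among the tested members is itself tied to the genotype.

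The log2 difference of Mgst2 was 0.28 after APAP (SE 0.14, 95% interval -0.02 to 0.59, limma adjusted p 0.645). It was 0.39 after saline (SE 0.14, 95% interval 0.08 to 0.69, limma adjusted p 0.295). Averaged over both injections it was 0.33 (SE 0.10, 95% interval 0.12 to 0.55, limma adjusted p 0.0952). With arrays weighted by their quality in limma, the saline difference of 0.47 (adjusted p 0.0112) and the average of 0.38 (adjusted p 0.00967) were past the threshold, but those weights also took the saline calls over all probe sets to 2030, against 89, and the probe set had been let in by liver-null arrays alone. Within the first array set the difference was 0.36 after APAP and 0.54 after saline, and within the second 0.14 and 0.07. All values of Mgst2 lay between percentiles 22.4 and 43.1 of their arrays, and whether signal this dim comes from transcript or from background was not tested.

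**Figure D2:**
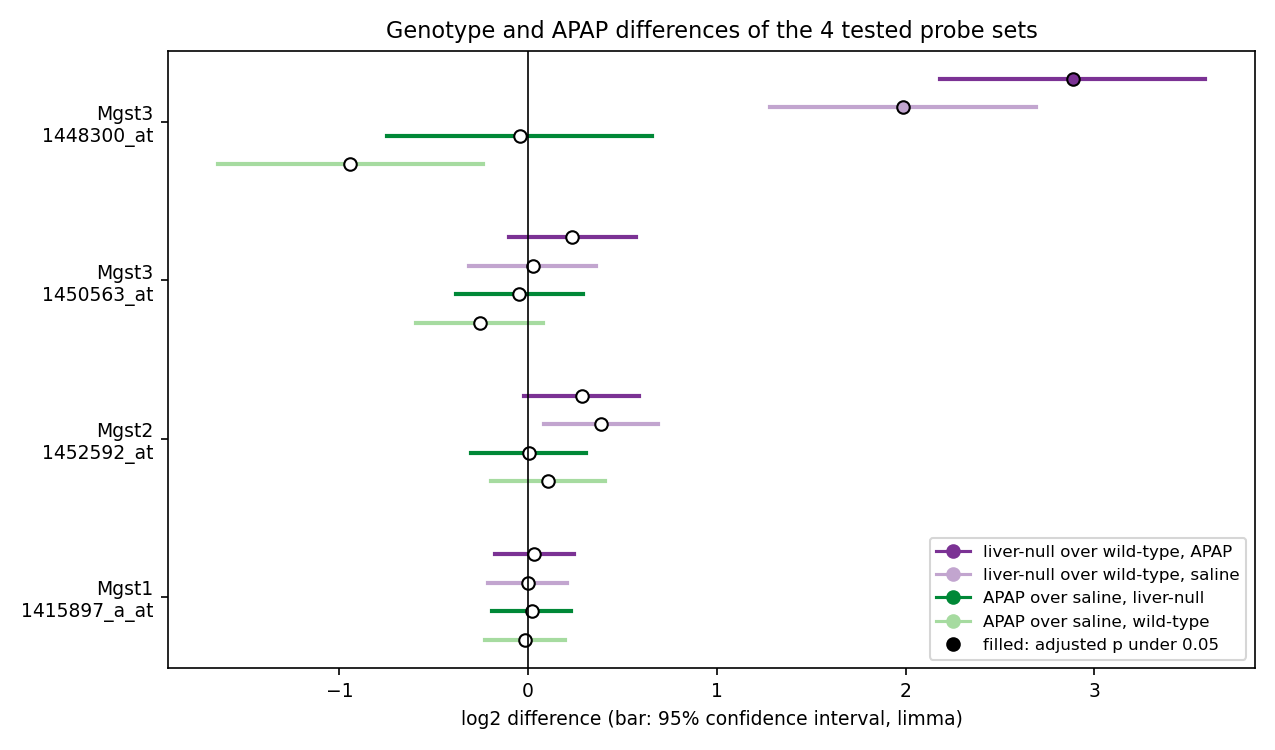
Log2 differences of the tested member probe sets in each comparison with their 95% intervals from limma, filled where the adjusted p was under 0.05. Mgst3 1448300_at lies at 2.88 after APAP and 1.99 after saline for liver-null over wild-type, and the interval of Mgst1 1415897_a_at reaches no farther than 0.24 from 0 in those comparisons.

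Set beside the soluble glutathione transferases, which conjugate the same kinds of electrophile in the cytosol and mitochondria, Mgst3 stood near the top by size and the other 2 members near the middle or below. The 17 of 21 listed soluble transferases that were on the array were all tested. After APAP, 5 rose in liver-null livers and 0 fell, with a median difference of 0.78 log2 units, against -0.00 over all tested probe sets. Of all tested probe sets, 0.761% were called in that comparison. Gsta2, an alpha-class transferase, was 12.01 ± 0.07 in liver-null and 8.87 ± 1.04 in wild-type livers, a difference of 3.15 (limma adjusted p 0.0039). With each gene read by its probe set of highest mean, it was the gene of the 20 in the combined family with a larger difference than Mgst3. The mu-class genes Gstm3, read by 1427474_s_at, and Gstm4 were both 2.27 higher. Another Gstm3 probe set, 1427473_at, was outside this ranking and was 3.71 higher (limma adjusted p 0.00157), above both Gsta2 and Mgst3. The alpha-class gene Gsta4, which acts on lipid aldehydes, was 1.92 higher. Gstm2 was the fifth. Mgst1 had rank 17 and Mgst2 rank 15.

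After saline, 4 soluble transferases rose and 0 fell, where 0.622% of all tested probe sets were called. The median was 0.52, against -0.02 over all tested probe sets. The 4 were Gsta2, by 2.05, Gstm3 and Gstm4, by 1.57 each, and Gstm2, by 0.79. Mgst3 again followed Gsta2 in this ranking, while Gstm3 1427473_at, outside it, was 2.30 higher, above both. This count was 0 in limma when liver 4 or 5 of the liver-null group or liver 8 or 9 of the wild-type group was left out, and 2 in the first array set alone. Averaged over both injections, 8 rose and 0 fell, with a median of 0.55, where 3.65% of all tested probe sets were called. In each of the 12 fits without 1 array, 8 or 9 were called. Gstt3, a theta-class gene, was among the 8 at 1.89. APAP over saline was called for 0 of the 17 in either genotype. In wild-type livers 1 of the 17 lay above 0 and the median was -0.26, against -0.01 over all tested probe sets. Mgst3 lay at -0.94 and Gsta2 at -1.09, neither of them called. Without single arrays, the Mgst3 1448300_at value ran from -1.14 to -0.60. The mu-class genes are close copies of each other, and probe sets such as 1427474_s_at can read more than 1 of them.

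**Figure D3:**
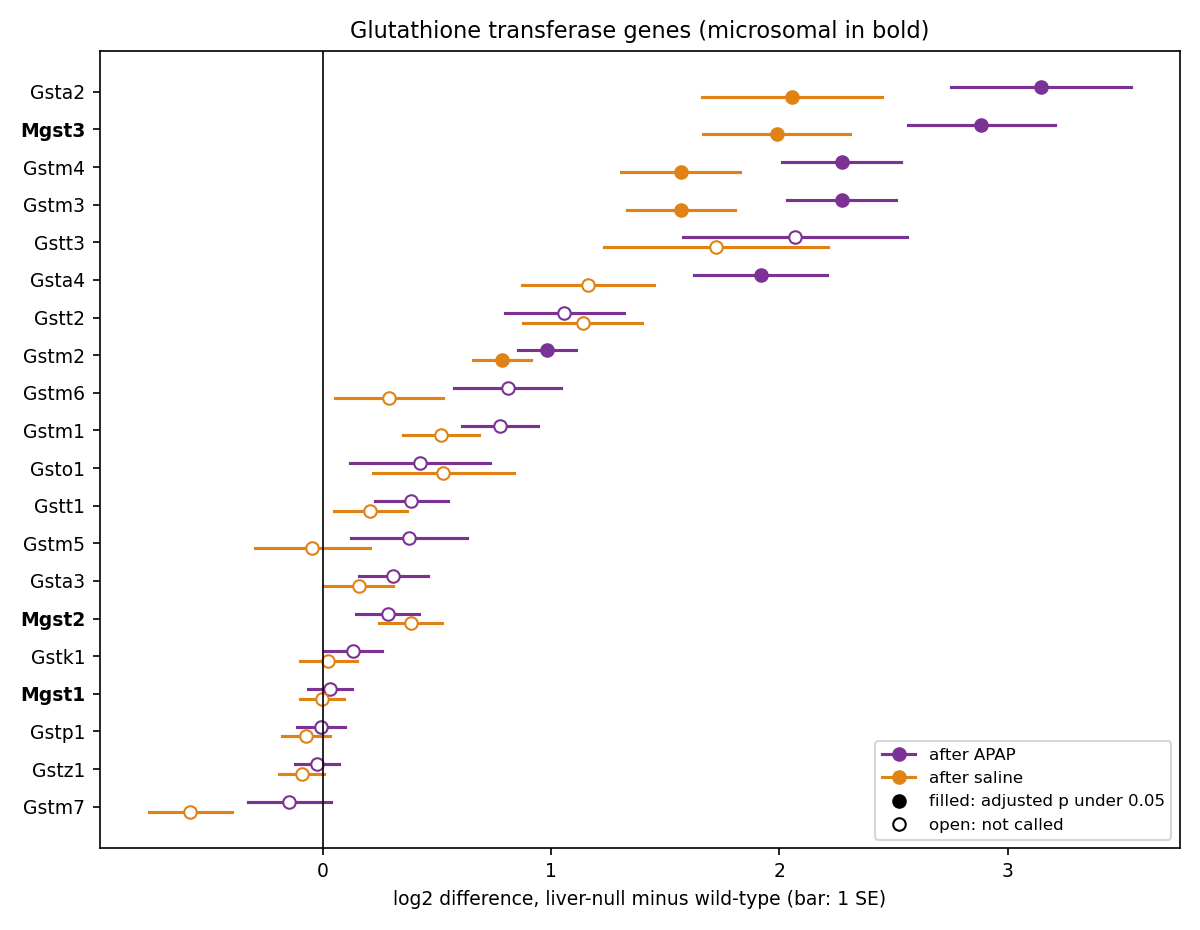
Log2 difference of liver-null over wild-type livers for the 20 tested glutathione transferase genes, after APAP and after saline, with bars of 1 standard error and filled points for an adjusted p under 0.05 in limma. Each gene is read by its probe set of highest mean. On that reading Mgst3 follows Gsta2 in both comparisons, at 2.88 and 1.99, while Mgst1 lies at 0.03 and 0.00.

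The probe sets of the other MAPEG genes were dim. Alox5ap, the helper protein that presents arachidonic acid to 5-lipoxygenase, averaged 2.62 ± 0.16 in liver-null and 2.73 ± 0.19 in wild-type livers after APAP, and 2.67 ± 0.16 in liver-null and 2.56 ± 0.05 in wild-type livers after saline (SD, n = 3 each). Its differences of -0.11 and 0.11 did not pass (limma adjusted p 0.989 and 0.870). Ltc4s, the leukotriene C4 synthase of blood cells, and Ptges, a prostaglandin E synthase, lay below the filter. Of 18 listed leukotriene and related eicosanoid genes, 13 were on the array and 4 were tested. None of those 4 passed the limma test after APAP or after saline, where 0.761% and 0.622% of all tested probe sets did. Their medians were 0.02 after APAP and 0.10 after saline.

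The genes known to answer to NRF2, glutathione transferases left out, lay on the same side as Mgst3. Of 26 listed, 22 were tested, and 10 rose in liver-null livers after APAP, 7 after saline and 15 on average over both, with 0 lower in each. Of all tested probe sets, 0.761% were called after APAP, 0.622% after saline and 3.65% on average, in either direction. Txnrd1 itself is one of the 22 and was called each time. Without it, 9, 6 and 14 of 21 rose, with medians of 0.97, 0.76 and 0.92. Above 0 were 21 of the 22 after APAP and all 22 after saline. The medians over all 22 were 0.96, 0.76 and 0.89. Among the called genes, the largest differences after APAP were Cbr3, a carbonyl reductase, at 7.10, Nqo1, a quinone reductase, at 3.69 (limma adjusted p 0.00223), Cbr1, another carbonyl reductase, at 2.03, and Srxn1, which repairs oxidised peroxiredoxins, at 1.59. The wild-type side of the first 2 was dim: Cbr3 was above the filter on 1 and Nqo1 on 2 of the 3 wild-type APAP arrays, and these sizes depend on the background. Among the called genes after saline they were Nqo1 at 2.83, Srxn1 at 1.28, Ugdh, which makes UDP-glucuronate, at 1.05, and Ephx1, microsomal epoxide hydrolase, at 0.76. The saline count was 3 when liver 4 of the liver-null group was left out, 0 for liver 5, and 2 with liver 8 or 9 of the wild-type group left out, and the APAP count was 5 without liver-null APAP 2 and 6 without liver-null APAP 3 or wild-type APAP 12. The average count was 14 or 15 in the 12 such fits. Over the 8 other alternative fits of each comparison, the saline count ran from 0 to 15 and the APAP count from 8 to 14. A TGACNNNGC match lay in the promoter windows of 9 of the 22 listed NRF2 genes that had a window (40.9%) and of 3 of 19 soluble transferases (15.8%). A gene with several windows counted if any of them matched. These shares of genes are therefore not in the same unit as the 12.4% of all single windows.

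The lists of glutathione supply, peroxide removal and the endoplasmic reticulum membrane share genes with the NRF2 list. Gsr, Gclc, Srxn1 and Ephx1 were already counted there and are not separate results. Calls in these lists stand beside 0.761% of all tested probe sets after APAP, 0.622% after saline and 3.65% on average. Genes that supply glutathione, the co-substrate of all 3 members, went in both directions. Of the 9 tested among 10, Gsr, glutathione reductase, rose by 0.97 after APAP and by 0.76 after saline, and Cbs, which starts the route from homocysteine to cysteine, fell by 0.94 after saline. The medians were 0.35 after APAP and 0.14 after saline. On average over both, Gclc, the catalytic subunit of glutamate-cysteine ligase, was also higher, by 0.96. Of 14 listed genes of peroxide removal, 11 were tested, while Prdx1, Prdx5 and Prdx6 had no probe set with their symbol alone and were not read. Among the 11, none that reduces peroxides itself passed after APAP or after saline in limma. Srxn1, whose product restores peroxiredoxins, passed in both. Gpx2, a glutathione peroxidase, passed on average, at 0.73. The medians of the peroxide list were 0.20 after APAP and 0.10 after saline. Of 13 tested enzymes of the endoplasmic reticulum membrane, the compartment of MGST1, Ephx1 passed after APAP, a call that held in limma in 2 of the 6 fits without 1 array, and after saline, a call that held in none of the 6. On average Fmo1, a flavin monooxygenase, was also higher, by 0.84, and Hsd11b1, which activates glucocorticoids, fell by 0.33. Medians of that list were 0.02 after APAP and 0.03 after saline. Without single arrays, the saline count of the glutathione supply list fell in 5 of 6 fits. It was 0 in 3 of the 6 (liver-null saline 5 and wild-type saline 8 and 9). The saline count of the peroxide list was 0 in 4 of 6 (liver-null saline 4 and 5 as well as wild-type saline 8 and 9). Over the 8 other alternative fits, the saline count ran from 0 to 3 for each of these lists and from 0 to 6 for the endoplasmic reticulum list. The average count of the peroxide list, 2, was 1 in 5 of 12 fits. The APAP call of Ephx1 was lost without liver-null APAP 2 or 3 or wild-type APAP 12 or 13.

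The probe sets most like Mgst3 1448300_at over the 12 arrays, among 13119 searched, were Gstm3 1427473_at (Pearson r 0.985), Gstm3 1427474_s_at (0.982), Tkt 1451015_at (0.981), Gstm4 1424835_at (0.980) and Nqo1 1423627_at (0.976). Tkt encodes transketolase of the pentose phosphate pathway. The 12 points share genotype, treatment and array set. Over the 8 arrays of the first set, which are among the 12 used to pick them, r was 0.985 to 0.991 for these 5. Because they were picked by r over these values, a likeness to Mgst3 in single livers follows largely from the choice. Gstm3 1427473_at gave 7.54, 7.38 and 6.82 in liver-null and 2.80, 3.45 and 4.37 in wild-type livers after APAP, and 7.47, 7.44 and 7.35 in liver-null and 4.56, 5.42 and 5.38 in wild-type livers after saline. Wild-type APAP 12, the lowest liver for Mgst3, was also the lowest for each of these 5 probe sets. Nqo1 gave 6.70, 7.02 and 6.55 in liver-null and 2.39, 3.20 and 3.61 in wild-type livers after APAP.

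**Figure D4:**
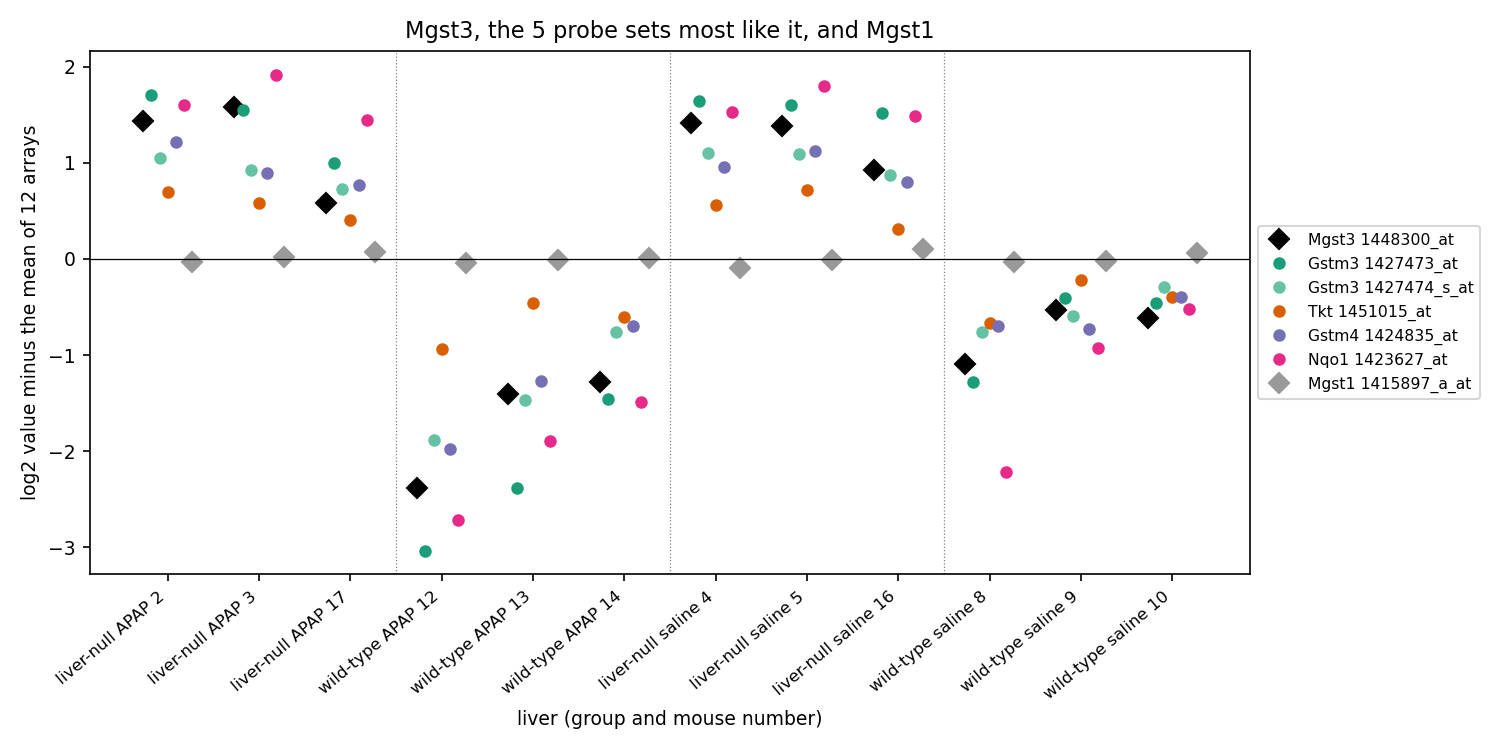
Log2 signal of Mgst3 1448300_at, of the 5 probe sets with the highest Pearson r to it and of Mgst1 1415897_a_at in each liver, each minus its own mean over the 12 arrays. The 5 probe sets lie above 0 in the 6 liver-null livers and below 0 in the 6 wild-type livers, as Mgst3 does, and Mgst1 stays near 0. The 5 were picked by r over these same values, so their shared split follows largely from the choice.

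With the group means taken out, the likeness of Mgst3 went to other genes: Zfp24 (r 0.960), Ankrd24 (0.935), Ccdc107 (0.935), Rdh9 (0.928) and Hadh (0.926), over the same 12 arrays. Such deviations hold 8 residual degrees of freedom. Each list in this paragraph is the top 5 of 13119 or 13120 probe sets, so a high r can come from the search alone. No p was computed, and shared regulation was not tested. For Mgst1 1415897_a_at the nearest over the 12 values were Cat (0.944), Akr1c21 (0.938), Vdac1 (0.936), Mthfd1 (0.924) and Aco1 (0.923), for a probe set whose SD over all 12 arrays was 0.06. Over the 8 arrays of the first set, r was lower for these 5, from 0.738 (Akr1c21) to 0.904 (Vdac1). Over deviations from the group means the nearest to Mgst1 were Ywhaz (0.983), Bms1 (0.980), Smim10l1 (0.975), Igfbp4 (0.967) and Slc17a2 (0.967). For Mgst2 the nearest over the 12 values were Ikbkg (0.955), Extl1 (0.950), Zfand5 (0.930), Ppfibp2 (0.923) and Eif4ebp1 (0.918), and over deviations Kcnh3 (0.961), Extl1 (0.953), Rxrb (0.912), Procr (0.909) and Wipi1 (0.907). Extl1 was in both lists of Mgst2, while the lists of Mgst3 and of Mgst1 shared no gene between their values and their deviations.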

How the data were processed

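Liver RNA from 12 mice was hybridised to Affymetrix arrays after a single cycle of biotin labelling, per the labels' protocols. The deposited values are log2 signals per probe set, summarised by the authors with RMA, per the submitters' processing notes. No source used here gives the version or settings of RMA. Members, gene lists and comparisons were chosen with earlier results of these data known. Symbols came from the platform annotation, which can be old: of 22626 probe sets, 20380 had 1 symbol, 691 several and 1555 none. A probe set was tested where it exceeded its array's 40th percentile on at least 3 of 12 arrays. Values were fitted with limma 3.58.1 in R 4.3.3, with 1 mean for each of the 4 groups, all 12 arrays sharing 1 estimate of spread (8 residual and 3.42 prior degrees of freedom), and two-sided p-values adjusted by Benjamini-Hochberg over all tested probe sets and called under 0.05. The script was tested on simulated data. RMA is known to shrink differences of dim probe sets and to bring arrays to a common distribution of probe signals, though the upper quartiles of the deposited values still differed between the 2 array sets. The array sets were split at the widest gap of the upper quartile. Named genes were all probe sets of the members and of Txnrd1, the 5 nearest probe sets by Pearson r, and at most 4 called genes per list, direction and comparison, by size. A listed gene was read by its probe set of highest mean among those with 1 symbol. Genes without such a probe set were counted as not on the array. Gstm2 after APAP and the marker Cela1 were named after their values were seen. Motifs were searched by exact letters on both strands of RefSeq windows. Alternatives were no filter, array set as a covariate, the first array set alone, only the arrays compared, quantile normalization, array weights, an intensity trend with a robust prior, 1 probe set per gene, and each array left out. Replicate numbers name mice and are shared by no groups, so nothing was paired.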

Additional observations from a re-analysis of the deposited data

How the results depend on the processing

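The genotype gap of Mgst3 1448300_at kept its direction in every alternative run, and its call in all but the 4 single-array fits after saline (1.81 to 2.14 over the 6). The counts of called probe sets were less stable. After APAP, 109 became 65 with 1 probe set per gene, 66 with only the arrays compared, 282 with array set as a covariate and 286 with array weights, and 32 to 92 without single arrays. After saline, 89 became 54 with 1 probe set per gene, 31 with only the arrays compared, 385 with the covariate, 146 in the first array set alone, 163 after quantile normalization, 2030 with array weights and 168 with an intensity trend and robust prior, and 13 to 124 without single arrays. Averaged over both injections, 523 became 1262 with the covariate, 814 after quantile normalization and 1989 with array weights, and 311 to 611 without single arrays. APAP over saline in liver-null livers gave 1 in the first array set alone.

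Array weights put Mgst2, which entered the test through liver-null arrays alone, past the threshold after saline (0.47) and on average (0.38). Values near 0 changed sign. Mgst1 1415897_a_at became 0.0078 after saline and 0.00014 for APAP over saline in wild-type livers with array weights, and its average became -0.0053 in the first array set alone and -0.0019 after quantile normalization. For APAP over saline in liver-null livers, Mgst3 1448300_at became 0.11 in the first array set alone and 0.068 with array weights, and Mgst2 became -0.085 and -0.12. Without single arrays, Mgst1 ran from -0.058 to 0.046 after saline, from -0.030 to 0.073 for APAP over saline in liver-null and from -0.033 to 0.011 in wild-type livers, from -0.013 to 0.090 for the difference of responses and from -0.013 to 0.039 on average. In the same fits Mgst3 1450563_at ran from -0.038 to 0.12 after saline and from -0.21 to 0.066 for APAP over saline in liver-null livers, where Mgst3 1448300_at ran from -0.24 to 0.26 and Mgst2 from -0.11 to 0.089. The causes were not tested. Fits with fewer arrays or 1 probe set per gene also hold fewer samples or probe sets. Mgst3 1450563_at has no value with 1 probe set per gene. No paired analysis was possible because the groups share no replicate numbers. Dim signal limits Mgst2, 1415898_at and 1450563_at, and 3 livers a group limit the rest.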
